A study of Rattus norvegicus with 2 samples.

Results

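The regions described here are the last 3 Mb of each of the 20 rat autosomes, as far as the array covers them. A probe belonged to such a region when its start lay within 3 Mb of the largest probe end on its chromosome, and the measured signal was not used to choose it. The 20 regions hold 7700 of the 235872 probes kept on the arrays, and the remaining 212241 probes of the same chromosomes served for comparison. DNA was taken from the kidneys of 2 untreated male rats of the Wistar strain (spelled Wister in the labels), 5 weeks old, and each rat was measured on 1 array. The labels put both rats in 1 group, normal kidney, and there is no control group. DNA fragments made by the restriction enzyme BmgT120I were precipitated with the monoclonal 8-oxoG antibody N45.1, joined to adaptors and amplified by PCR. The precipitated DNA (IP) was labelled with Cy5, and fragments that were not precipitated (input) were labelled with Cy3 and hybridised to the same array as the reference. No array with exchanged dyes was made, and an effect of the dye therefore cannot be told apart from an effect of the IP.

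8-Oxoguanine (8-oxoG) is the common product of the oxidation of guanine in DNA. It can pair with adenine during replication and thereby give rise to G:C to T:A changes, and it is removed by base excision repair, in which the glycosylase OGG1 acts first. A chromosome end consists of the telomere, built of short G-rich repeats, and of the subtelomere inside it, which in mammals is often rich in genes and in repeated sequence. Many rat autosomes have their centromere close to one end. Unique probes cannot be placed in the telomeric repeats themselves, so the last probe of the array marks the end of the measurable sequence and not the end of the chromosome.

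The 8-oxoG level of a probe is log2 of IP over input intensity minus the median of the array, and a level of 0 therefore stands for the array median and not for absence of 8-oxoG. Array medians of the processed intensities were 90.6 (IP) and 89.3 (input) in replicate 1, and 70.4 and 70.2 in replicate 2. Of the 7700 probes in the last 3 Mb, 6039 (78.4%) were well above background for IP and input alike in both rats, against 79.0% of the probes elsewhere. Each region holds 264 to 475 probes, with a median of 383.5. With only 2 arrays, the precision of each level is limited by their number. P-values measure no more than the spread between these 2 arrays, shared over all windows or fragments tested. With 1 array for each rat, differences between animals and between arrays cannot be told apart.

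The last 3 Mb did not share a single direction. Averaged over the 20 autosomes, the level in the last 3 Mb was -0.03 on replicate 1 and -0.09 on replicate 2, and in the rest of the same chromosomes it was also -0.03 and -0.09. The mean difference between the last 3 Mb and the rest was -0.0048 on replicate 1 and -0.0014 on replicate 2, or -0.0031 ± 0.0024 (SD, n = 2). Single chromosomes lay far from this mean. The difference ranged from -0.24 on chromosome 5 to 0.41 on chromosome 16, and its SD over the 20 chromosomes was 0.22 on replicate 1 and 0.19 on replicate 2. Over all 3 Mb windows of the autosomes the SD was 0.25 and 0.20, so the windows at the ends varied about as much among themselves as windows elsewhere. The averages above give each chromosome equal weight. With each probe weighted equally instead, the ends were at -0.06 and -0.11 and the rest at -0.01 and -0.09, lower at the ends in both rats.

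On 8 chromosomes the last 3 Mb was above the rest in both rats, on 9 it was below in both, and on chromosomes 10, 14 and 15 the rats differed in sign. Each 3 Mb window counted back from the last probe was compared with the rest of its chromosome by limma, with Benjamini-Hochberg adjustment over 860 windows and an adjusted p under 0.05 as the threshold. Among the 20 windows at the ends 4 were higher (chromosomes 9, 16, 18 and 20), where 31.2% of all windows were called higher. A further 9 were lower (chromosomes 1, 3, 4, 5, 7, 8, 11, 12 and 13), where 29.4% of all windows were called lower. Counts at the ends were thus 4 of 20 and 9 of 20 beside a background in which most windows differ from their chromosome. Neighbouring windows are not independent, and exact permutation over 2 arrays cannot go below p = 0.5.

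**Figure D1:**
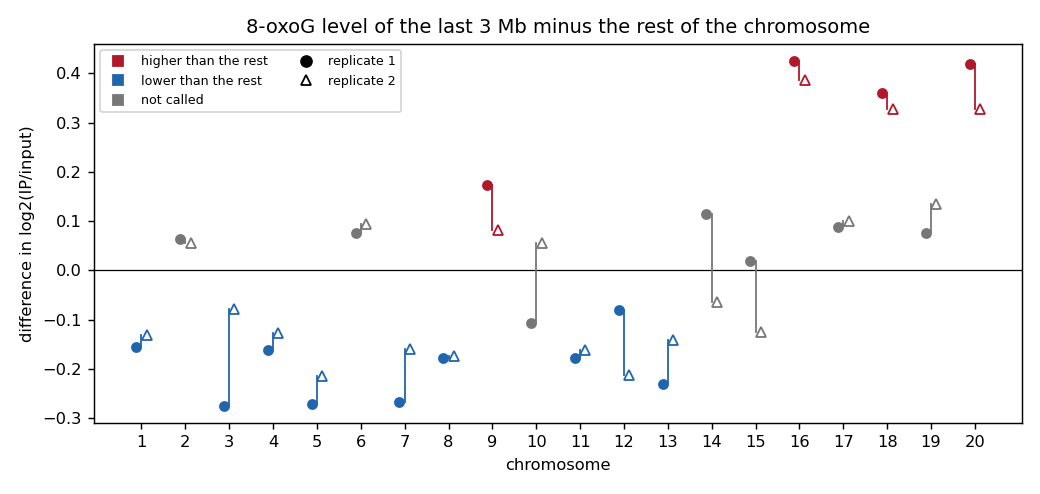
Difference in 8-oxoG level (log2) between the last 3 Mb and the rest of each autosome, with a circle for replicate 1 and a triangle for replicate 2 joined by a line, coloured by the limma call (red higher, blue lower, grey not called). Chromosomes 16, 18 and 20 have means of 0.34 to 0.41, apart from the other chromosomes, and chromosome 5 has the lowest mean at -0.24.

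The 3 highest ends were those of chromosomes 16, 20 and 18. On chromosome 16 the last 3 Mb (chr16:87223602-90219806 of the rn4 assembly, 334 probes) had a level of 0.39 on replicate 1 and 0.31 on replicate 2, while the rest of the chromosome was at -0.03 and -0.08. The difference of 0.41 ± 0.03 (SD, n = 2) corresponds to a 1.32-fold higher IP over input ratio (limma, adjusted p = 1.33e-08). It was the 4th highest of the 31 windows of that chromosome. On chromosome 20 the region chr20:52430487-55258639 (331 probes) was at 0.33 and 0.25, and the rest was at -0.09 and -0.08. The difference of 0.37 ± 0.06 (SD, n = 2) is 1.29-fold (limma, adjusted p = 1.03e-07). It was the largest difference from the rest among the 19 windows of chromosome 20. The level itself was about that of the 3 Mb just before it (last 3 Mb minus those 3 Mb, -0.0027). On chromosome 18 the region chr18:84236443-87234188 (311 probes) was at 0.35 and 0.22, against -0.01 and -0.10 in the rest. The difference was 0.34 ± 0.02 (SD, n = 2), which is 1.27-fold (limma, adjusted p = 5.91e-07) and the 2nd highest of 30 windows. In these 3 chromosomes both rats were above the rest, and the SD between the rats (0.02 to 0.06) was far smaller than the differences themselves. Chromosome 9 was the remaining call, at 0.17 on replicate 1 and 0.08 on replicate 2 (limma, adjusted p = 0.0451), and it was called under 10 of 18 alternative settings.

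The 3 lowest ends were those of chromosomes 5, 7 and 13. On chromosome 5 the region chr5:170089711-173082160 (468 probes) was at -0.27 on replicate 1 and -0.30 on replicate 2, while the rest of the chromosome was at 0.0014 and -0.09. The difference of -0.24 ± 0.04 (SD, n = 2) was called lower (limma, adjusted p = 0.000206). On chromosome 7 the region chr7:139952340-142951681 (475 probes) was at -0.27 and -0.24, against 0.0012 and -0.08, a difference of -0.21 ± 0.08 (SD, n = 2; limma, adjusted p = 0.00108). On chromosome 13 the region chr13:108148060-111143127 (415 probes) was at -0.17 and -0.18, against 0.06 and -0.04. The difference there was -0.19 ± 0.06 (SD, n = 2; limma, adjusted p = 0.00405). The lower ends were lower in both rats, but by smaller amounts than the 3 highest ends were higher. None of these 3 was the lowest window of its chromosome. Counted from the highest, they ranked 53rd of 58 windows on chromosome 5, 41st of 48 on 7 and 27th of 37 on 13. The other lower calls were chromosomes 3 (-0.18), 8 (-0.18), 11 (-0.17), 12 (-0.15), 4 (-0.15) and 1 (-0.14), with adjusted p between 0.00631 and 0.0232. On chromosome 3 the rats were furthest apart among these, with -0.27 on replicate 1 and -0.08 on replicate 2. By the same ranking, the end of chromosome 12 was the lowest of its 16 windows. The others ranked 68th of 89 (chromosome 1), 45th of 57 (3), 44th of 63 (4), 36th of 43 (8) and 23rd of 30 (11). The end of chromosome 12 had the lowest level of all 20, at -0.30 and -0.37, and its difference from the rest was smaller because that whole chromosome is low, at -0.22 and -0.15. When the median over probes was used in place of the mean, 5 ends were called lower (3, 5, 7, 12 and 13), as were 20.8% of all windows, and with normexp background correction none was, as described with the input intensities.

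Of the 7 ends that were not called, chromosomes 19 (0.11), 17 (0.09), 6 (0.08) and 2 (0.06) were above the rest in both rats, with adjusted p between 0.0998 and 0.365. Chromosomes 10, 14 and 15 had mean differences of -0.03, 0.02 and -0.05, each smaller than the SD between the rats (0.12, 0.13 and 0.10). Over the 20 chromosomes, the differences of replicate 1 and replicate 2 had a Pearson r of 0.902 and a Spearman rho of 0.823, given as a description since all chromosomes come from the same 2 arrays. The SE of a difference was between 0.056 and 0.057 because limma shared the spread over all windows.

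**Figure D2:**
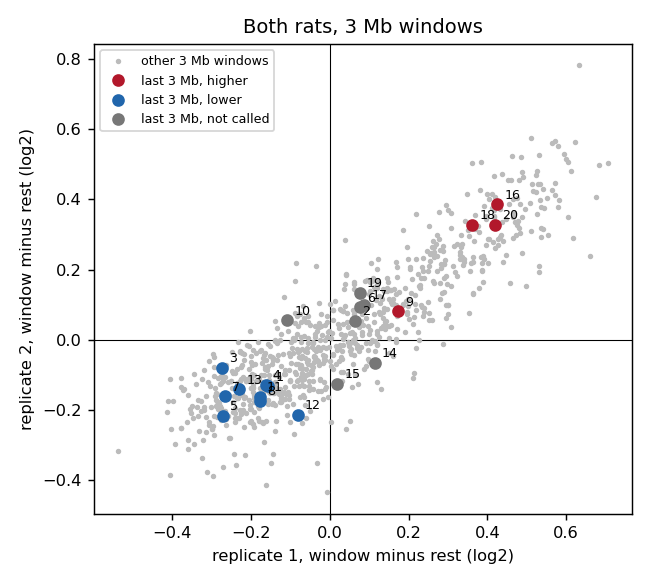
Difference between the last 3 Mb and the rest of each autosome (log2) in replicate 1 on the x axis and in replicate 2 on the y axis, with 1 large numbered point per chromosome coloured by the limma call, and small grey points for all other 3 Mb windows. Chromosomes 16, 18 and 20 lie between 0.33 and 0.42 in both rats, and chromosomes 10, 14 and 15 fall where the signs of the rats differ.

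Within the last 3 Mb the average level fell with distance from the end in both rats, but single chromosomes went either way and no test was made. Averaged over the 20 chromosomes, the last 1 Mb was at 0.06 on replicate 1 and -0.05 on replicate 2, the second Mb from the end at -0.01 and -0.07, and the third at -0.13 and -0.14. The last Mb was above the third in both rats, by 0.19 and 0.09 (0.14 ± 0.07, SD, n = 2). That step was upward toward the end in both rats on 9 chromosomes and downward in both on 4. Nearest to the end, the last 100 kb (225 probes) averaged 0.24 on replicate 1 and 0.05 on replicate 2 over the 20 chromosomes. Only replicate 1 stood out there. Between 300 and 400 kb from the end, replicate 2 was higher, at 0.07, and replicate 1 was at 0.10. Farther in, the averages of both rats stayed below 0 in every Mb up to 20 Mb from the end, and the mean of both rats was lowest 7 to 8 Mb from the end, at -0.19 and -0.20. Replicate 2 by itself was lowest 15 to 16 Mb from the end, at -0.22.

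**Figure D3:**
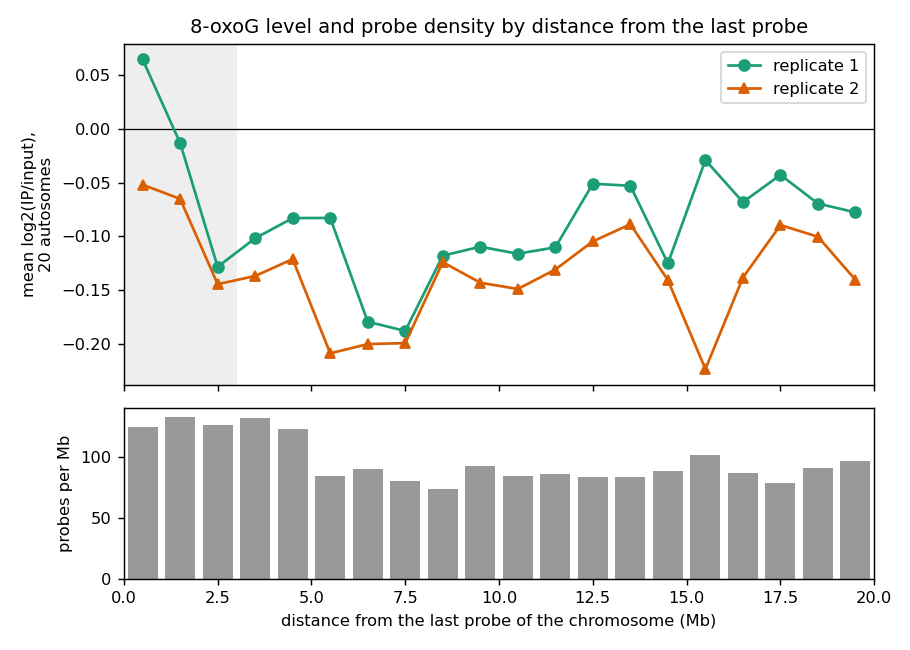
Mean 8-oxoG level (log2) of the 20 autosomes in each Mb counted back from the last probe, for each of the 2 rats (upper panel, last 3 Mb shaded), and probes per Mb as bars (lower panel). The mean of both rats is lowest 7 to 8 Mb from the end (-0.19 and -0.20) and higher in the last Mb (0.06 and -0.05).

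The calls changed with the length of the end region, and the SE changed with it. The SE was 0.087 for 1 Mb windows and 0.056 to 0.057 for 3 Mb windows. When 1 Mb windows were used, 7 ends were called higher (2, 6, 16, 17, 18, 19 and 20), where 27.9% of all 1 Mb windows were. Only chromosome 5 was called lower than its rest, where 18.3% of windows were. The last 1 Mb of chromosome 6 was the highest of the 7, at 0.35 on replicate 1 and 0.54 on replicate 2 relative to the rest (limma, adjusted p = 3.57e-06). Chromosomes 1, 3, 4, 7, 8, 12 and 13 lost their lower call but kept a negative mean, from -0.15 on 12 to -0.06 on 13. The last 1 Mb of chromosome 11 had a mean of 0.18. When 10 Mb windows were used, 2 ends were higher (18 and 20), where 33.7% of windows were, and 9 were lower (1, 3, 5, 7, 8, 11, 13, 15 and 4), where 29.5% were. Chromosome 16, the highest end over 3 Mb, had a difference of 0.0043 over 10 Mb. Compared with the 3 Mb just before it, the last 3 Mb was higher in both rats on 12 chromosomes and lower in both on 4. Chromosome 14 was among the latter, with a mean difference of -0.27 from the preceding 3 Mb (limma, adjusted p = 0.00103), although it stood 0.02 above the rest of its chromosome. Called higher than the preceding 3 Mb were chromosomes 6 (0.22), 9 (0.18), 16 (0.43) and 19 (0.22). Their adjusted p-values by limma were 0.00829, 0.0354, 6.29e-08 and 0.0089, in that order. The share over all windows was not counted for this reference.

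Fragments of 1 Mb were also compared with the array median itself, and not with their own chromosome. Of the 60 such fragments in the last 3 Mb, 8 were above 0, where 20.9% of all 2569 autosomal fragments were, and 13 were below 0, where 19.2% were (limma, adjusted p under 0.05). The remaining 39 were not called. The highest fragment was the second Mb from the end of chromosome 16 (88219807 to 89219806), at 0.52 on replicate 1 and 0.44 on replicate 2. It was followed by the last Mb of chromosome 6 (146625938 to 147625937), at 0.36 and 0.44. After it came the third Mb from the end of chromosome 20 (52258640 to 53258639), at 0.43 and 0.32. The lowest fragment was the second Mb from the end of chromosome 12 (44780047 to 45780046), at -0.43 and -0.51. Next came the third Mb from the end of chromosome 8 (126029871 to 127029870), at -0.49 and -0.32, and the second Mb from the end of chromosome 5 (171082161 to 172082160), at -0.35 and -0.36. All of these 6 fragments had the same sign in both rats. The calls above 0 lay on chromosomes 2, 6, 16, 18 and 20, and chromosome 6 also had a call below 0, in the third Mb from its end.

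At a finer scale, each end was split into 12 steps of 250 kb. On chromosomes 16 and 20, 11 of the 12 steps were above 0 in both rats, and on chromosome 18 there were 9, while none of the steps of these chromosomes was below 0 in both. The high level of these 3 ends was therefore spread over the region and not carried by a single step. The opposite was seen on chromosomes 5 and 12, where 11 steps were below 0 in both rats, and on chromosomes 3, 7 and 8, where 10 were. Chromosome 6 was the most uneven end, with 6 steps above 0 and 4 below 0 in both rats, a highest step of 0.54 between 1000 and 1250 kb from the end, and a lowest of -0.47 in the part farthest from it, between 2750 and 3000 kb. Chromosome 19 had 5 steps on each side, from 0.45 in the last 250 kb to -0.46 between 2750 and 3000 kb. On chromosome 11, the last 250 kb was at 0.41, whereas the step between 2250 and 2500 kb was at -0.57.

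**Figure D4:**
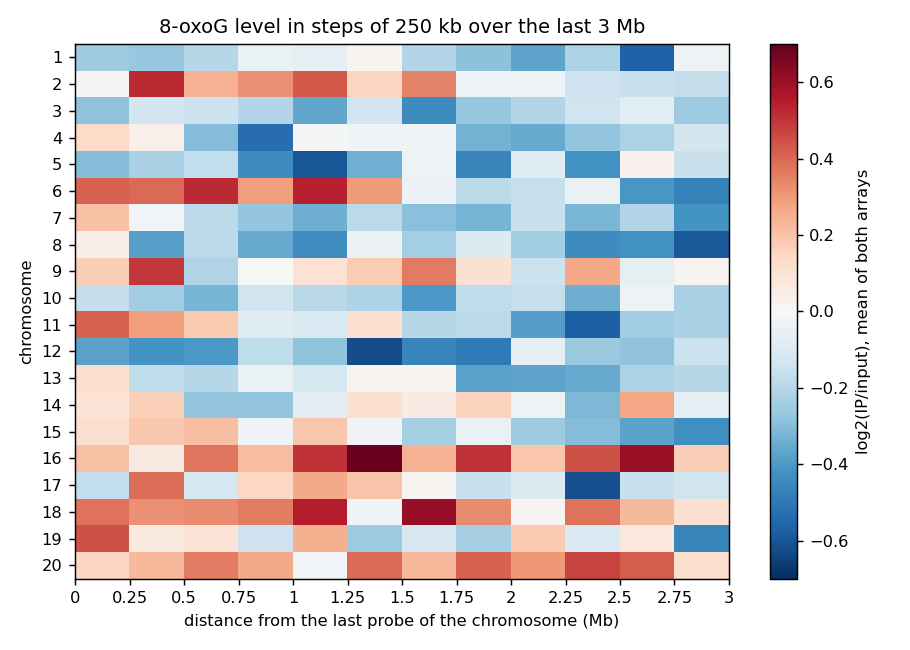
Mean 8-oxoG level (log2, mean of the 2 rats) in steps of 250 kb over the last 3 Mb of each autosome, with distance from the last probe in Mb on the x axis, 1 row for each chromosome, and red above and blue below 0. Chromosomes 16 and 20 are above 0 in both rats in 11 of 12 steps, chromosomes 5 and 12 are below 0 in both in 11, and chromosome 6 changes side within the region.

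The level was also averaged over all probes within 500 kb of each probe. On this smoothed profile the stretch that reaches the last probe was above 0 on 14 chromosomes and below 0 on 6. In both rats separately it was above 0 on 9 chromosomes and below 0 on 5. The stretches above 0 had a median length of 1.12 Mb, and the longest were those of chromosomes 18 (5.26 Mb), 20 (5.06 Mb) and 16 (3.41 Mb). Those below 0 were longer on the mean of both rats, with a median of 7.92 Mb, from 5.03 Mb on chromosome 3 to 11.6 Mb on chromosome 8. The rats had similar lengths on chromosomes 3, 5 and 12. On chromosome 1 the length was 7.17 Mb on replicate 1 and 0.94 Mb on replicate 2, and on chromosome 10 it was 6.60 and 2.93 Mb. The short stretches above 0 on chromosomes 4, 7 and 13 (0.009 to 0.067 Mb) were below 0 on replicate 2. On chromosome 8 the rats did not share a side at the last probe, with 0.09 on replicate 1 and -0.45 on replicate 2.

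The brightness of the input channel moved with the level. In the last 3 Mb of chromosomes 16, 18 and 20, the log2 input intensity was lower than in the rest of the chromosome by 0.83, 0.68 and 0.88, in that order. The log2 IP intensity there was lower as well, but by 0.42, 0.33 and 0.51. All 4 ends called higher had a dimmer input than the rest, and 8 of the 9 called lower had a brighter input, with chromosome 12 as the exception. Over the 20 ends, Pearson's r between the difference in log2 input intensity and the difference in level was -0.89 and Spearman's rho was -0.81. Over all 860 windows these values were -0.84 and -0.82, so this relation was present along whole chromosomes. It is given as a description, because the input is the denominator of the level and all points share the same 2 arrays. In a further setting, the trend of the level with log2 input intensity was removed from each array (intensity trend removed). That intensity is the denominator of the level itself, so this setting does not separate the level from the brightness of the input. The ends of chromosomes 16, 18 and 20 were still called higher, at 0.30, 0.26 and 0.26 (limma, adjusted p = 0.000337, 0.0012 and 0.00136). Chromosomes 1 (-0.13, adjusted p = 0.061), 4 (-0.14, adjusted p = 0.0548), 9 (0.10, adjusted p = 0.169) and 13 (-0.12, adjusted p = 0.0916) were no longer called. The values of chromosomes 1 and 4 had hardly moved, and that of chromosome 13 had been -0.19. Normexp background correction leaves an offset in both channels and compresses the ratios of dim probes. It was applied to signals before the dye matching and removal of spatial trends, so the setting changed more than the background. With it, chromosomes 16 and 18 were called at 0.09 and 0.08, and chromosome 20 was not (0.08, limma, adjusted p = 0.0801). Of all 860 windows 61 were then called higher (7.09%) and 3 lower (0.349%). None of the 20 ends was called lower by limma with that correction, and 1 was lower at an unadjusted p under 0.05, as were 46 of all windows (5.35%).

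**Figure D5:**
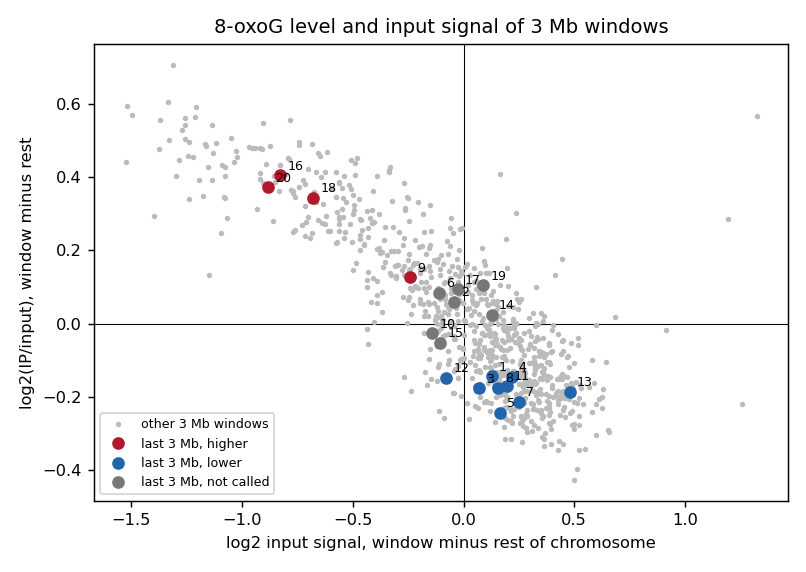
Difference in log2 input intensity between a 3 Mb window and the rest of its chromosome on the x axis, and difference in 8-oxoG level (log2) on the y axis, as means of the 2 rats. The last windows of the 20 autosomes (large numbered points, red higher, blue lower, grey not called) lie within the cloud of all 860 windows, with chromosomes 16, 18 and 20 at its dim, high side.

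Sorted into 5 classes of equal size by input brightness, probes of the last 3 Mb followed the probes elsewhere. In the dimmest class the level was 0.17 on replicate 1 and 0.26 on replicate 2 in the last 3 Mb, against 0.26 and 0.33 in the rest. In the brightest class it was -0.43 and -0.65 at the ends, against -0.39 and -0.64. In these 2 classes the ends were slightly lower than the rest in both rats. The same held for the second dimmest class (0.18 and 0.19 against 0.23 and 0.24). It also held for the second brightest class (-0.20 and -0.37 against -0.19 and -0.33). In the middle class the ends were lower on replicate 1 (-0.02 against 0.03) and higher on replicate 2 (-0.02 against -0.04). The share of probes well above background was low at the ends of chromosomes 16 (71.3%), 18 (74.0%) and 20 (68.6%), where the whole range over the 20 ends was 68.6% to 84.4%.

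Probes were placed more densely near the ends. The last 3 Mb held 128.3 probes per Mb, and 84.3 were found beyond the last 5 Mb, with denser probes than in the rest of the chromosome on all 20 autosomes. The median spacing between probe starts was 6508.5 bases at the ends and 7957 bases in the rest, and the longest gap at the ends was 171824 bases. Of the probes at the ends, 13.4% were shorter than 60 bases, against 10.3% in the rest. The levels of 60-base probes were -0.05 and -0.12 at the ends and -0.0084 and -0.09 in the rest, and those of the 820 probes of 55 to 59 bases were -0.14 and -0.15 at the ends and -0.11 and -0.11 in the rest. The 212 probes under 55 bases were at 0.06 and 0.19 at the ends, and such probes were at 0.09 and 0.16 in the rest.

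Single probes agreed less between the rats than averages did. Over the 7700 probes, Pearson's r between the rats was 0.320 and Spearman's rho was 0.345, and in the rest of the chromosomes they were 0.342 and 0.364. These are correlations across positions of the same 2 arrays and not across independent samples. Averages over 100 kb had an r of 0.541, those over 250 kb an r of 0.641, and the 60 averages over 1 Mb an r of 0.804, close to 0.786 for 1 Mb averages in the rest. Both rats were above 1 for 5.18% of the probes at the ends (5.84% in the rest) and below -1 for 5.04% (4.60% in the rest). The share above 1 ranged from 0.897% to 12.9% among the 20 ends.

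Single probes reached far larger values than any average. Among the probes that were well above background for IP and input in both rats, the highest mean was on chromosome 5 at 170753140, where the rats were at 0.87 and 4.69. This probe was dim in the input, at 14.0 and 8.3 beside array medians of 89.3 and 70.2, and its IP intensities were 25.8 and 224.8. It lay in the end with the lowest difference from the rest of its chromosome, and the 7 other probes within 10 kb averaged -0.06. Next in order was a probe on chromosome 10 at 110248391 (1.88 and 3.20). The probe on chromosome 17 at 96873452 followed, at 2.53 and 2.47, and its 2 neighbours averaged 0.56. The last of the 5 highest were both on chromosome 18, at 85704549 (2.36 and 2.61) and at 85312658 (1.87 and 3.02). Of the 5 lowest probes, 3 were on chromosome 8, at 127896519 (-3.00 and -4.62), 126218729 (-3.96 and -3.10) and 128572396 (-1.44 and -5.27). The other two were on chromosome 20 at 54606173 (-2.88 and -4.20), inside an end that was high as a whole, and on chromosome 19 at 58565311 (-3.09 and -3.46). Neighbours within 10 kb had, on average, the same sign as the probe at 96873452 on chromosome 17, at 85704549 on chromosome 18 and at 128572396 on chromosome 8. At the other probes they had the opposite sign, except at 126218729 on chromosome 8, which had no neighbour within 10 kb. Both probes on chromosome 18, that at 127896519 on chromosome 8 and those on chromosomes 19 and 20 had only 1 neighbour each. The neighbour on chromosome 20 was at 0.02, so its sign says little.

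At the opposite end of the same chromosomes, the first 3 Mb (6369 probes) lay above the rest by 0.10 on replicate 1 and 0.04 on replicate 2 on average. It was above the rest in both rats on 9 chromosomes and below in both on 5. The last 3 Mb was lower than the first by 0.11 and 0.05, or -0.08 ± 0.04 (SD, n = 2). First and last 3 Mb lay on the same side of the rest in both rats on 4 chromosomes (2, 4, 9 and 20) and on opposite sides in both rats on 8. On chromosome 8 the first 3 Mb was above the rest by 0.51 and 0.31, and on chromosome 13 by 0.50 and 0.27, whereas the last 3 Mb of both was below it. On chromosome 16 the first 3 Mb was below the rest, at -0.16 and -0.20 relative to it, whereas its last 3 Mb was the highest of all.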

How the data were processed

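8-oxoG IP DNA (Cy5, red) and input DNA (Cy3, green) of 2 rat kidneys were hybridised to 2 Agilent Rat Genome CGH arrays. Per the file headers and the submitters' processing notes, the scans were processed by the authors in Agilent Feature Extraction 10.5.1.1, which subtracted background, removed spatial trends and matched the dyes, and deposited a processed intensity for each channel, a log10 ratio, intensity values before dye normalization and flags. The authors also deposited a table of log2 values, which equals log2 of processed red over green (largest difference 6.2e-15), not centred.

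Levels were calculated here for each probe as log2 of processed IP over input intensity minus the array median, without loess or quantile steps. Of 243466 spots per array, controls and 305 flagged spots were left out, while 3 saturated ones stayed in, and repeated spots were averaged. Windows were counted back from the largest probe end, on rn4 coordinates of the files. A window mean minus the mean of the other probes of its chromosome (at least 20 probes) was the value in an intercept-only, two-sided test of limma 3.58.1 (R 4.3.3), Benjamini-Hochberg adjusted over all windows. Fragments of 1 Mb were tested against 0 likewise. The step was tested on simulated data. Of 200 of 860 windows shifted by 0.25, 92.5% were recovered with 5 false calls, and of those shifted by 0.15, 0%. Of 200 of 2569 fragments shifted by 0.5, 90% were recovered, and of those shifted by 0.25, 0%. The simulated noise was independent between windows, and fewer windows were shifted than were called in the data (268 higher and 253 lower of 860). These rates therefore need not hold for the data, where chromosomes 1, 4 and 12 were called at -0.14, -0.15 and -0.15. Normexp (offset 50) used the median signals, since the files used here hold no mean signals. These signals had no dye matching or removal of spatial trends, and the ratios were then only centred on the array median.

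Given in full were the 3 highest and 3 lowest ends and 1 Mb fragments of at least 50 probes with the same sign on both arrays, and the 5 highest and 5 lowest probes well above background. The regions and these lists were chosen with earlier results of these data known. Alternatives covered the ratio and centring, background, filters, averaging, length and reference of the region, fragment grid and each replicate alone. Genes and sequence were not analysed here, since no rn4 annotation or genome was used here. Other steps used Python 3.11.15.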

Additional observations from a re-analysis of the deposited data

How the results depend on the processing

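The mean over autosomes of the last 3 Mb minus the rest stayed within 0.07 of 0 in every setting run, but its sign changed. It was 0.0037 with normexp background correction, 0.012 with only probes well above background, -0.013 with the intensity trend removed and 0.010 before dye normalization. With regions of 1, 2, 5 and 10 Mb it was 0.067, 0.043, -0.027 and -0.069. Against the rest of all autosomes it was -0.0100, with a reference without the first 3 Mb -0.000083, and against the 3 Mb before it 0.062. Choices made after seeing the data gave -0.030 with 1 probe for each 10 kb and -0.015 with only probes of 60 bases. Each replicate alone gave -0.0048 to -0.0014. In the following counts the share over all windows or fragments in the same setting stands in parentheses. Higher ends numbered 2 with normexp (7.09%), 7 over the last 1 Mb (27.9%), 7 over 2 Mb (29.8%) and 2 over 10 Mb (33.7%), in place of 4 (31.2%). Lower ends numbered 0 with normexp (0.349%), 5 with the median over probes (20.8%), 1 over the last 1 Mb (18.3%) and 4 over 2 Mb (25.8%), in place of 9 (29.4%). Fragments of 1 Mb above 0 numbered 13 in the authors' table and without centring (25.6% in both), 13 before dye normalization (26.4%), 3 with the intensity trend removed (13.1%) and 0 with normexp (0.234%), in place of 8 (20.9%). Fragments below 0 numbered 6 with the median over probes (7.4%) and 0 with normexp (3.04%), in place of 13 (19.2%). With normexp, limma at an unadjusted p under 0.05 gave 0 of 60 fragments above (0.662%) and 17 below (28.5%). The correlation between the rats over probes was 0.372 with only probes well above background, 0.550 with normexp and 0.541 for 100 kb fragments, in place of 0.320. With only probes well above background, chromosomes 16, 18 and 20 were at 0.43, 0.42 and 0.40 and called, and chromosomes 4 (-0.11) and 12 (-0.098) lost their call.

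Of 360 tested alternative values for single chromosomes, 271 kept sign and side of the threshold, 51 lost and 15 gained a call with the same sign, and 23 had the other sign, 12 of them called in neither setting and 11 in at least 1. With the 3 Mb before it as reference, values among these 11 were 0.14 on chromosome 1, 0.040 on 4, 0.015 on 5, 0.025 on 8, 0.015 on 11, 0.089 on 13, -0.27 on 14 and -0.0027 on 20. The rest of the 11 were 0.0044 on chromosome 4 with normexp, 0.18 on 11 over the last 1 Mb and -0.039 on 9 over 10 Mb. No cause was tested. No paired analysis was possible because both rats share 1 group. Leaving out a replicate left 1 array and therefore no test.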

Other observations

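The last 3 Mb of chromosome X, which is not an autosome, held 440 probes. Its level was -0.22 on replicate 1 and -0.34 on replicate 2, and the rest of chromosome X was at 0.03 and -0.19. The end was thus below the rest in both rats, by differences of -0.25 and -0.15.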
